A study of Mus musculus with 3 samples.

Results

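Endocytic scavenger receptors of liver sinusoid cells were followed across single-cell transcriptomes of 3 wild-type mouse livers. The 9 genes are a given list of scavenger and lectin receptors, Stab1, Stab2, Mrc1, Lyve1, Fcgr2b, Clec4g, Cd36, Msr1 and Scarb1, out of 55421 gene identifiers in the count matrices. All 3 mice had eaten an iron-deficient diet with 2 to 6 ppm iron for 1 week, so the libraries share that diet. None comes from a mouse that was not fed it. The first mouse was the control (IDD). The second also received 10 mg of iron-loaded transferrin, holo-transferrin, into the tail vein (IDD+HTF). The third was moved to chow with 2% carbonyl iron for 18 h (IDD+HID). Each group is 1 mouse and 1 library, so no difference between groups has a replicate check, no test was possible, and every interval given covers counting error only. A group difference and a difference between individual animals, dissociations or libraries cannot be told apart. The labels name no sex, age or strain, and no time between injection and collection. The livers were perfused and digested with collagenase and pronase, and a small part of the hepatocyte suspension was mixed into the non-parenchymal one before 10x 3' v3.1 capture.

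Liver sinusoidal endothelial cells line the sinusoid with an open, fenestrated wall and clear soluble waste macromolecules from blood by clathrin-mediated endocytosis. They do so with a small set of receptors that bind denatured collagen, hyaluronan, glycans, modified lipoproteins and immune complexes, while Kupffer cells, the resident macrophages beside them, take up particles and share some of the same receptors. Blood enters the sinusoid at the portal tract and leaves it at the central vein, and endothelial cells along that path differ in the genes they express.

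The libraries held 34552858 (IDD), 55478904 (IDD+HTF) and 75404660 (IDD+HID) unique molecular identifiers (UMIs, counted transcripts), and 1311, 3203 and 3538 cells were kept. Clusters were named "-like" from marker genes that include none of the 9 receptors, and the receptors were also left out of the genes used for clustering. The sinusoidal-like class held 330, 782 and 1163 cells with median depths of 3408.5, 6168 and 9921 UMIs, and the summed level of its 9 markers, all with a UMI in every library, was 16075, 19201 and 20286 CPM (UMIs scaled to a class total of 1000000). It consists of cluster 1, led by Gpr182, Clec4g and Cyp4b1, and cluster 9, led by Cxcl10, Apold1 and Adamts1. Cluster 1 supplied 258 of the 330 cells in the IDD library, and cluster 9 supplied 454 of 782 and 687 of 1163 in the others. The Kupffer-like class held 195, 514 and 674 cells at 4606, 12506.5 and 13964 UMIs. A vascular endothelial-like class (clusters 8 and 12) had more sinusoidal zone markers than vascular ones among the leading genes of its clusters, so those are described by number. In the sinusoidal-like and Kupffer-like classes the control library is thus the shallowest in cells and in UMIs per cell, and depth there moves with the group order.

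On GRCm38 the genes lie at chr14:31139013-31168641 (Stab1), chr10:86841198-87008025 (Stab2), chr2:14229392-14332057 (Mrc1), chr7:110850607-110863239 (Lyve1), chr1:170958617-170976547 (Fcgr2b), chr8:3707064-3720651 (Clec4g), chr5:17781690-17888801 (Cd36), chr8:39581685-39642673 (Msr1) and chr5:125277087-125341094 (Scarb1). All 9 are protein-coding, and Mrc1 alone lies on the plus strand. RefSeq promoter windows on GRCm38.p6 were found for 6 of the 9 genes, not for Lyve1, Msr1 or Scarb1. The 250 bases before each start were searched on both strands for GATAA (a core of GATA factor sites), GAGGAA (a core of PU.1 sites) and TGCTGA (a Maf half-site). Of 32851 promoters of that length, 22.6% hold GATAA, 23.3% hold GAGGAA and 16.1% hold TGCTGA. The following 3 promoters are shown because these genes have different levels in sinusoidal-like and Kupffer-like cells: Stab1 and Clec4g were far higher in sinusoidal-like cells, and Mrc1 was high in both. Each is written 5′ to 3′ on the gene's strand, with motif matches in capitals (TTCCTC is GAGGAA read on the other strand). They end at the annotated start and cover chr14:31168642-31168891 on the minus strand (Stab1), chr2:14229164-14229391 on the plus strand (Mrc1) and chr8:3720652-3720901 on the minus strand (Clec4g).
Stab1: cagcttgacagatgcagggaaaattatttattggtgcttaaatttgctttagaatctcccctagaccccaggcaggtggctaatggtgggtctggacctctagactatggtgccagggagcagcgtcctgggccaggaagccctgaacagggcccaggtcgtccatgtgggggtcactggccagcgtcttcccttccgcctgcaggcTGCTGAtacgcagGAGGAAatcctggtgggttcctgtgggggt
Mrc1: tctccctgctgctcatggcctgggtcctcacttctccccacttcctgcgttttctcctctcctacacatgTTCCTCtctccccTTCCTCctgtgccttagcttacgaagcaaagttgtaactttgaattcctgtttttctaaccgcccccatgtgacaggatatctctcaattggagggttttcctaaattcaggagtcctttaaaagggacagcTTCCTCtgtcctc
Clec4g: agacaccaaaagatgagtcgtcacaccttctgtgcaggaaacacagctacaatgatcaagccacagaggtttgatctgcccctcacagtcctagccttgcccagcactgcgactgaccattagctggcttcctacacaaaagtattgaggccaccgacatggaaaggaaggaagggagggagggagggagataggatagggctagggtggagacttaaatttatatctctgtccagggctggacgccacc
Stab1 has 1 GAGGAA, 30 to 25 bases before the start, and 1 TGCTGA, 43 to 38 bases before it. Mrc1 has 3 GAGGAA on the other strand, 180 to 175, 167 to 162 and 35 to 30 bases before its RefSeq start. Clec4g, Stab2 and Fcgr2b have none of the 3 motifs in this window, and GATAA is in 0 of the 6. Cd36 has 1 TGCTGA 11 to 6 bases before its RefSeq start. The windows of Cd36 (chr5:17835897-17836146) and Fcgr2b (chr1:170976072-170976321) lie inside the gene spans given above, and those of Stab2 and Mrc1 overlap theirs in part. A match is a run of letters, not a measured binding site. The gene for PU.1, Spi1, the macrophage lineage factor, was at 615, 605 and 558 CPM in Kupffer-like cells and at 3.96, 3.31 and 1.91 CPM in sinusoidal-like cells (IDD, IDD+HTF and IDD+HID, the order used below). Gata4, a regulator of sinusoidal endothelial identity, was at 260, 313 and 266 CPM in sinusoidal-like and 3.54, 12.5 and 13.7 CPM in Kupffer-like cells. Maf was at 2746, 3221 and 2871 CPM in the first and 795, 1188 and 1059 CPM in the second.

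Stab1, Stab2, Mrc1, Fcgr2b and Clec4g had their highest level in sinusoidal-like cells, above every other class or cluster compared in the same library. Over the 3 libraries the sinusoidal-like range of Stab2, Fcgr2b and Clec4g overlapped none of the others, while that of Stab1 and Mrc1 overlapped the range of cluster 8. The stabilins are large scavenger receptors for hyaluronan, chondroitin sulphate, modified lipoproteins and other waste. Stab1 was at 1258 (95% exact Poisson interval 1197 to 1321), 1536 (1503 to 1569) and 1119 (1100 to 1139) CPM in sinusoidal-like cells and at 51.7, 131 and 113 CPM in Kupffer-like cells. Stab2 was at 1548, 1461 and 1460 CPM in sinusoidal-like and 110, 157 and 163 CPM in Kupffer-like cells. Levels of these 3' counts are compared here between cells for the same gene, never between genes.

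Among the lectin-type receptors, Mrc1, the mannose receptor, which clears glycoproteins and collagen propeptides, was at 1597, 1904 and 2296 CPM in sinusoidal-like cells. It was at 854, 983 and 1165 CPM in Kupffer-like cells, so both classes carried it in every library. Clec4g, a C-type lectin of sinusoidal endothelium also known as LSECtin, was at 2297, 3078 and 3231 CPM in sinusoidal-like cells. In Kupffer-like cells it had 3 UMIs in the IDD library (2.13 CPM) and was at 104 and 182 CPM in the others. Lyve1, the hyaluronan receptor of lymphatic and sinusoidal endothelium, was at 291 (262 to 323), 788 (765 to 812) and 564 (551 to 578) CPM in sinusoidal-like cells. It was first in the order too, but its range overlapped those of stellate-like cells (70.4, 238 and 307 CPM) and cluster 8 (131, 188 and 352 CPM).

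Fcgr2b, the inhibitory Fc receptor through which sinusoidal endothelium clears small immune complexes, was at 2342, 2672 and 2936 CPM in sinusoidal-like cells. The B-like class, where the receptor restrains B-cell signalling, had 85.1, 98.4 and 102 CPM. The remaining 3 receptors did not have sinusoidal-like cells clearly first. Cd36, a class B scavenger receptor for long-chain fatty acids and oxidised lipoproteins, was at 536, 779 and 803 CPM there, at 725, 1211 and 1215 CPM in cluster 12, a range that overlaps, and at 131, 321 and 121 CPM in cluster 8. Msr1, the class A scavenger receptor for modified lipoproteins and bacterial products, was at 411, 384 and 343 CPM in sinusoidal-like and 455, 309 and 449 CPM in Kupffer-like cells, which overlap, and higher in cluster 12 at 563, 843 and 858 CPM. Scarb1, the receptor for high-density lipoprotein, was first of the named classes in Kupffer-like cells at 125, 165 and 158 CPM. Sinusoidal-like cells had 123, 105 and 85.9 CPM, so the ranges did not overlap, but in IDD the values were nearly equal. With cells carrying other classes' markers left out, as described below, IDD had 122 (104 to 143) CPM in Kupffer-like and 125 (106 to 147) CPM in sinusoidal-like cells. The few cells of cluster 8 ranged from 62.0 to 242 CPM for Scarb1.

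**Figure D1:**
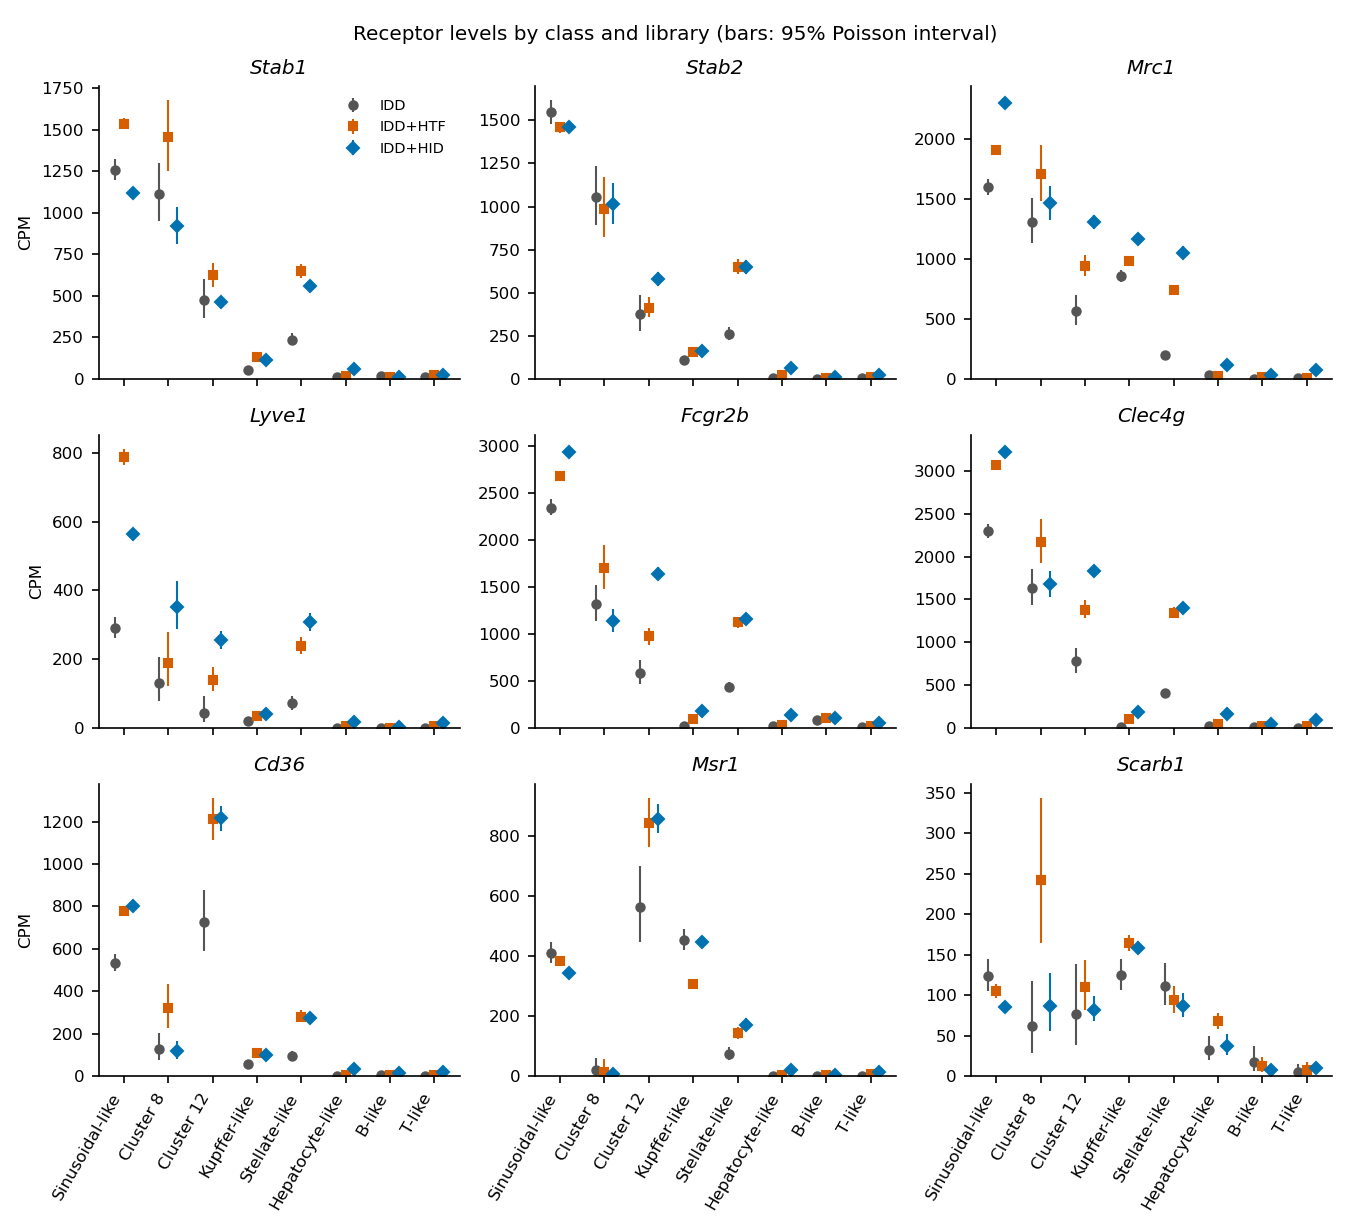
Level of each receptor (CPM, linear axis) in 8 classes or clusters and the 3 libraries, with 95% Poisson intervals as bars. Stab1, Stab2, Mrc1, Fcgr2b and Clec4g are highest in sinusoidal-like cells, Cd36 and Msr1 are above their sinusoidal-like levels in cluster 12, and T-like cells are at 91.2 CPM or less for all 9 genes.

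Shares of cells with at least 1 UMI follow depth, so each cell was also thinned to 1000 UMIs. After thinning, Clec4g was detected in 74.7%, 88.6% and 93.3% of sinusoidal-like cells and in 0%, 1.3% and 3.4% of T-like cells, which should lack it. The unthinned shares were 90.9%, 98.8% and 99.5% against 0%, 6.0% and 10.8%, and T-like cells had median depths of 6285.5, 5242 and 6973 UMIs. Lyve1 was detected in 17.6% (exact binomial interval 13.7 to 22.2), 39.8% (36.4 to 43.4) and 33.6% (30.9 to 36.4) of thinned sinusoidal-like cells, and in 0%, 0.4% and 0.4% of T-like cells. Thus Lyve1 was found in a smaller share of control cells at equal depth. Scarb1 was detected in 10.3%, 9.2% and 7.7% of them, and in 0.3%, 0.7% and 1.0% of T-like cells. All 9 receptors were above their T-like share in all 3 libraries. The T-like and the free RNA background was not equal between libraries: droplets of 100 or fewer UMIs, which hold mostly free RNA, had Clec4g at 130.5, 300 and 376 CPM and Mrc1 at 118, 250 and 286 CPM.

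In stellate-like cells 8 of the 9 receptors, all but Scarb1, stood in nearly the proportions of sinusoidal-like cells. Taking Clec4g as the yardstick, those 8 were at 0.69 to 1.38 times the level that their sinusoidal-like ratio to Clec4g would give. Clec4g itself was at 402, 1347 and 1394 CPM in that class. In IDD+HTF and IDD+HID against IDD the same class had 8 of 9 receptors at least 1.5-fold apart, all of them higher, where 35.4% and 47.4% of all measured genes were at least 1.5-fold apart. Scarb1 stood 5.16, 2.05 and 2.34 times above its ratio there.

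Along the sinusoid, Msr1 had a steep gradient toward the portal side in all 3 livers, and the stabilins a shallow one toward the central side. Each sinusoidal-like cell was scored by 10 pericentral markers (such as Wnt2 and Kit) against 10 periportal ones (such as Dll4 and Efnb2), and the cells of each library were divided into a periportal, a middle and a pericentral range of equal size. A range is a stretch of a score and not a cell type, and its limits differ between libraries: the lower one was at −1.40, −0.98 and −0.58 and the upper one at −0.11, 0.00 and 0.38. The median cell had 12.5, 27 and 42 zone-marker UMIs, so the score is noisiest in the control. The pericentral markers summed to 340, 730 and 986 CPM in the periportal range and to 2890, 3562 and 4074 CPM in the pericentral range. The score is built from these markers, so that order follows from it. Cd9, listed as periportal, was higher in the pericentral range in every library.

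Msr1 was at 674, 638 and 587 CPM in the periportal range. It was at 167, 150 and 96.8 CPM in the pericentral range. The ratio was 0.247 (0.188 to 0.322), 0.234 (0.205 to 0.267) and 0.165 (0.148 to 0.184), and Msr1 was the only receptor at least 1.5-fold apart in the same direction in all 3 libraries. Over 5 ranges of the score the level decreased at each step in each library, from 688 to 108 CPM in IDD, from 635 to 78.9 CPM in IDD+HTF and from 653 to 61.1 CPM in IDD+HID. Kupffer-like cells also carry Msr1, and Kupffer markers summed to 84.3, 144 and 121 CPM in the periportal range and to 84.5, 128 and 179 CPM in the pericentral range, a sum that was lower pericentrally in IDD+HTF and higher in IDD+HID. Vascular markers were lower pericentrally in all 3 libraries, at 374, 198 and 179 CPM against 500, 566 and 617 CPM. The part of either list in the gradient was not tested.

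Cd36 was also lower in the pericentral range, at 409, 583 and 419 CPM against 584, 925 and 1132 CPM in the periportal range. Its ratio was 0.70, 0.63 and 0.37, so the control stayed within 1.5-fold. Stab1 was higher pericentrally by 1.45 (1.28 to 1.66), 1.28 and 1.38 times, from 1003, 1352 and 902 CPM. Stab2 was higher by 1.30, 1.30 and 1.32 times, from 1377, 1276 and 1252 CPM, which makes it the receptor whose zone ratio varied least between livers. Mrc1, Fcgr2b and Clec4g were higher pericentrally in the control alone by more than 1.3-fold, at 1.36, 1.39 and 1.40 times, and were between 0.952 and 1.14 times in the other livers. Scarb1 was within 1.23-fold in every library.

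The Lyve1 profile along the score was not the same in the 3 libraries. In IDD it was at 166, 281 and 400 CPM from the periportal to the pericentral range, a ratio of 2.42 (1.79 to 3.30). In IDD+HTF it was at 674, 971 and 711 CPM, highest in the middle, with a ratio of 1.05 (0.974 to 1.14). In IDD+HID it was at 600, 645 and 450 CPM, a ratio of 0.75 (0.704 to 0.799). Over 5 ranges the IDD profile was highest in the fourth (440 CPM) and was 289 CPM at the pericentral end, where IDD+HTF and IDD+HID had 605 and 398 CPM. The IDD ratio is the less firm: on the log2 scale it was 1.27 as given, 0.62 when the score was taken from cells thinned to 1000 UMIs, and 0.66 with the cells divided into only 2 ranges.

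**Figure D2:**
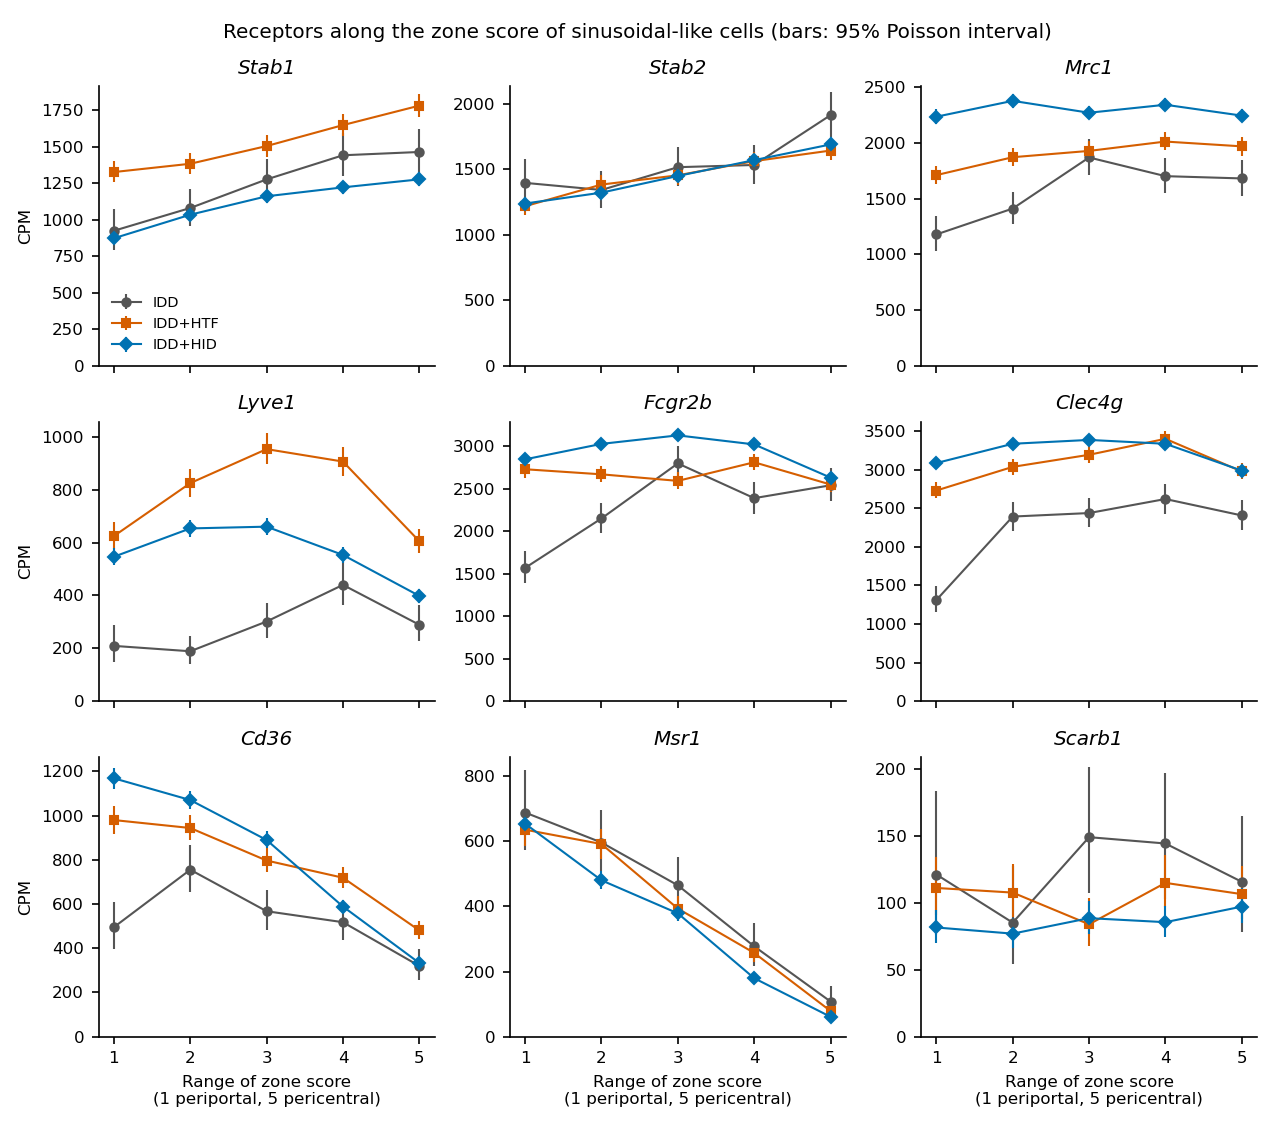
Level of each receptor (CPM, with 95% Poisson intervals) in 5 ranges of the zone score, from periportal (left) to pericentral (right), by library. Msr1 decreases at every step in all 3 libraries, and Lyve1 is lowest in the control in all 5 ranges.

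The 3 comparisons between libraries share samples, so their values are given side by side. A gene counted as higher or lower where its CPM in a class differed at least 1.5-fold with at least 50 UMIs in the 2 libraries together. In sinusoidal-like cells Lyve1 was the only one of the 9 receptors past that limit against IDD, being 2.71-fold (2.43 to 3.02) higher in IDD+HTF and 1.94-fold (1.74 to 2.16) higher in IDD+HID. That is 1 of 9 in both, where 19.9% and 33.9% of all measured genes were past the limit, so the count is no higher than the background. Between IDD+HID and IDD+HTF, 0 of 9 were past it against 16.5% of genes. The median log2 ratio of the receptors was 0.25, 0.33 and −0.00, against 0.02, −0.00 and −0.02 over all genes.

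Lyve1 rested on 368, 4283 and 6504 UMIs. It was higher than in the control in both clusters of the class, at 314, 887 and 656 CPM in cluster 1 and 234, 736 and 525 CPM in cluster 9. Taken alone, cluster 1 had 2 of 9 receptors past the limit in IDD+HTF (Lyve1 and Cd36; 19.8% of genes) and 4 in IDD+HID (also Mrc1 and Clec4g; 31.5%). Cluster 9 had 1 of 9 (Lyve1; 26.0%) and 2 (Lyve1 higher and Scarb1 lower; 38.4%). Between the iron-treated livers Lyve1 was 0.716 times (0.689 to 0.744) as high in IDD+HID. Leaving out cells with 5 or more UMIs per 10000 of another major class's markers (hepatocyte markers apart) left 2.68-fold and 1.92-fold.

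The other lectin-type receptors were closer to the control. Clec4g was 1.34-fold (1.29 to 1.39) higher in IDD+HTF and 1.41-fold (1.35 to 1.46) higher in IDD+HID. Mrc1 was 1.19-fold (1.14 to 1.25) and 1.44-fold (1.37 to 1.51) higher. Fcgr2b was 1.14-fold and 1.25-fold higher, so these 3 receptors had the same order of libraries, IDD lowest and IDD+HID highest. Depth and the summed sinusoidal markers of the class (16075, 19201 and 20286 CPM) had that order too, and their part was not tested. The share of cells after thinning, taken from the same UMIs, also had it. That share was 68.7%, 71.9% and 86.6% for Mrc1 and 77.2%, 82.3% and 87.5% for Fcgr2b.

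Of the lipoprotein receptors, Cd36 was 1.45-fold (1.34 to 1.58) higher in IDD+HTF and 1.499-fold (1.39 to 1.62) higher in IDD+HID, just inside the limit. Scarb1 was 0.85 (0.711 to 1.02) and 0.696 (0.587 to 0.829) times the control, and Msr1 was 0.932 and 0.835 times it. Scarb1 thus had the opposite order of libraries, on 156, 570 and 990 UMIs. Among the stabilins, Stab1 was 1.22-fold (1.16 to 1.29) higher in IDD+HTF, 0.89 times (0.845 to 0.938) the control in IDD+HID, and 0.729 times (0.709 to 0.749) in IDD+HID against IDD+HTF. Stab2 was 0.943 times the control in both and 0.999 times (0.973 to 1.03) between the iron-treated livers, the receptor that differed least.

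**Figure D3:**
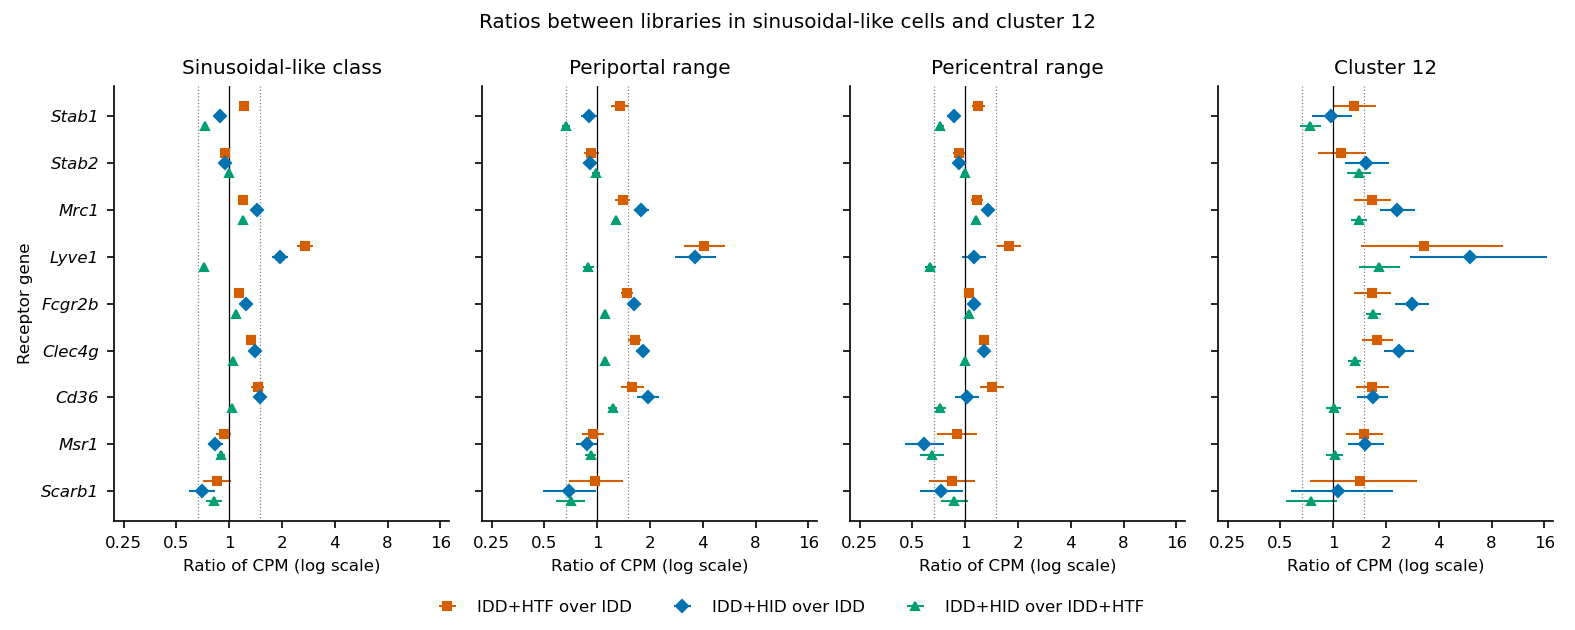
Ratio of CPM between libraries for each receptor (log axis) in the sinusoidal-like class, its periportal and pericentral ranges and cluster 12, with 95% intervals for counting error; dotted lines mark 1.5-fold. Lyve1 lies past the line against IDD in the sinusoidal-like class, at 2.71 and 1.94, and its ratios are larger in the periportal range, at 4.07 and 3.62.

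Among the 3 zone ranges, the number of receptors past the limit against the control was largest in the periportal one, where more genes in general were past it too. There IDD+HTF had 3 of 9 past the limit, against 27.6% of genes: Lyve1 at 4.07-fold (3.13 to 5.38), Clec4g at 1.63-fold (1.502 to 1.78) and Cd36 at 1.58-fold (1.37 to 1.84). IDD+HID had 5 of 9, against 41.7% of genes, all higher: Lyve1 at 3.62-fold, Cd36 at 1.94-fold, Clec4g at 1.81-fold, Mrc1 at 1.79-fold and Fcgr2b at 1.63-fold. These are 33.3% and 55.6% of the receptors, not far above the shares over all genes. Mrc1 was within the limit in IDD+HTF, at 1.39-fold, and Stab1 and Stab2 were within it in both comparisons. IDD+HID against IDD+HTF had 0 of 9, against 17.5%. The sinusoidal markers of the periportal range summed to 14459, 17728 and 19167 CPM, and its median depth was 2784.5, 5658 and 9368 UMIs. In the pericentral range the sum was 16445, 19938 and 20731 CPM. The part of marker level and depth in these ratios was not tested.

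In the middle range Lyve1 alone was past the limit, at 3.45-fold (IDD+HTF over IDD, 21.0% of genes), 2.29-fold (IDD+HID over IDD, 32.0%) and 0.665 times (IDD+HID over IDD+HTF, 15.3%). In the pericentral range Lyve1 was 1.78-fold (1.52 to 2.09) higher in IDD+HTF, 1 of 9 against 21.9% of genes. Msr1 was 0.58 times (0.452 to 0.754) the control there in IDD+HID, 1 of 9 against 32.2%. Against IDD+HTF, IDD+HID had Lyve1 at 0.633 and Msr1 at 0.648 times, 2 of 9 against 14.9%. The limits of the ranges differ between libraries, as given above, and how far that sets these ratios was not tested.

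Cluster 12 (33, 58 and 119 cells) is an endothelial cluster that combines a fair level of sinusoidal markers, 7451, 9130 and 12232 CPM, with vascular markers at 3873, 2961 and 2844 CPM. Cd36 and Msr1 were above their sinusoidal-like levels in it in all 3 libraries, and the 6 receptors other than these and Scarb1 were below theirs. Scarb1 was at 77.5, 110 and 82.1 CPM against 123, 105 and 85.9 CPM in sinusoidal-like cells, on 11, 53 and 115 UMIs in the cluster. Relative to Clec4g, Cd36 stood 4.02, 3.47 and 2.67 times and Msr1 4.06, 4.90 and 4.42 times above the proportions of sinusoidal-like cells. Clec4g was at 775, 1381 and 1827 CPM, Mrc1 at 563, 939 and 1307 CPM and Fcgr2b at 585, 970 and 1637 CPM, each in the order of the sinusoidal marker sum. Lyve1 had only 6, 67 and 357 UMIs (42.3, 139 and 255 CPM).

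Against the control, IDD+HTF had 5 of the 9 receptors past 1.5-fold in cluster 12, where 27.7% of genes were: Lyve1 at 3.29-fold (1.44 to 9.29), Clec4g at 1.78-fold, Cd36 and Mrc1 at 1.67-fold and Fcgr2b at 1.66-fold. IDD+HID had 7 of 9, against 43.5% of genes: Lyve1 at 6.03-fold (2.74 to 16.5), Fcgr2b at 2.80-fold, Clec4g at 2.36-fold, Mrc1 at 2.32-fold, Cd36 at 1.67-fold, Stab2 at 1.55-fold and Msr1 at 1.52-fold. Under TMM or median-of-ratios scaling that last count was 4, without Cd36, Stab2 and Msr1. IDD+HID against IDD+HTF had Lyve1 at 1.83-fold and Fcgr2b at 1.69-fold, 2 of 9 against 20.5%. The sinusoidal marker sum of the cluster moved the same way across the libraries, and its part in these ratios was not tested.

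Cluster 8 had under 30 cells in every library (24, 20 and 26) and was not compared between them. In it Cd36 and Msr1 were below their sinusoidal-like levels: Cd36 was at 131, 321 and 121 CPM and Msr1 at 20.7, 15.6 and 6.91 CPM. The cluster held 145241, 127911 and 289380 UMIs in all, so the Msr1 values rest on very few UMIs. The stabilins were nearer to sinusoidal-like levels, Stab1 at 1115, 1454 and 919 CPM and Stab2 at 1053, 985 and 1013 CPM. The ranges of Cd36 and of Msr1 over the libraries thus did not overlap between clusters 8 and 12. Rspo3, Lhx6, Cdh13, Fabp4 and Wnt9b, listed as pericentral, are among the leading genes of cluster 8. Ednrb, Adgrg6, Ntn4 and Jag1, listed as periportal, are among those of cluster 12. Whether the contrast differs from the zone profile given above was not tested.

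In Kupffer-like cells Mrc1, Msr1 and Scarb1 stayed within 1.5-fold between libraries in the class as a whole, and so did Stab2. Mrc1, Msr1 and Scarb1 are among the receptors that macrophages are known to carry. The markers of the class were all present, 10 of 10 in each library, and summed to 29206, 30811 and 27977 CPM. Cluster 3, led by Marco, Cd5l and Clec4f, held most of the class in IDD (150 of 195 cells) and IDD+HTF (343 of 514), while cluster 17, led by Cxcl2, Il1b and Cd83, held 339 of 674 in IDD+HID. Mrc1 was 1.15-fold and 1.36-fold higher than in the control, and Scarb1 was 1.32-fold and 1.27-fold higher. Msr1 was 0.679 times (0.621 to 0.743) the control in IDD+HTF and 0.987 times it in IDD+HID, and under TMM or median-of-ratios scaling it was past the limit in the former.

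The other receptors showed larger ratios against IDD in this class as it stands. Clec4g was 49.1-fold (16.7 to 239) higher in IDD+HTF and 85.7-fold (29.3 to 416) higher in IDD+HID, from 3 UMIs in the control. Fcgr2b was 6.45-fold (4.09 to 10.8) and 12.8-fold (8.19 to 21.4) higher. Together with Stab1 (2.53-fold and 2.18-fold), Lyve1 (1.79-fold and 2.08-fold) and Cd36 (1.86-fold and 1.68-fold) they made 5 of 9 past the limit in both comparisons, against 19.0% and 25.1% of genes. IDD+HID against IDD+HTF had 2 of 9, Fcgr2b at 1.99-fold and Clec4g at 1.74-fold, against 14.3%. In cluster 3 alone the counts were 6 of 9 in IDD+HTF over IDD (18.8% of genes), 6 of 9 in IDD+HID over IDD (23.9%) and 4 of 9 in IDD+HID over IDD+HTF (15.4%). Beside the same 5 receptors the counts against IDD hold Msr1 in IDD+HTF, lower at 0.628 times (0.569 to 0.694), and Stab2 in IDD+HID, higher at 1.89-fold (1.58 to 2.29). Between the iron-treated livers Lyve1, at 1.95-fold, and Msr1, at 1.53-fold (1.43 to 1.64), joined Fcgr2b and Clec4g.

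Sinusoidal markers moved with them. All 9 had a UMI in the Kupffer-like class of every library, and they summed to 172, 679 and 1177 CPM. Relative to Clec4g, Fcgr2b stood at 0.958 and 1.04 times its sinusoidal-like proportion in IDD+HTF and IDD+HID, and Lyve1 at 1.28 and 1.25 times. Mrc1 (15.2 and 9.003 times), Msr1 (23.7 and 23.2 times) and Scarb1 (46.3 and 32.7 times) stood far above theirs. Stab1, Stab2 and Cd36 also stood above theirs in both libraries, by less. In IDD Clec4g was at only 2.13 CPM in this class, so no proportion is given for that library. Cells with 5 or more sinusoidal marker UMIs per 10000 were 12 of 195, 58 of 514 and 91 of 674.

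When cells carrying markers of sinusoidal, T-like or B-like cells at that level were left out, a choice made after seeing the data, 180, 453 and 573 cells remained, with sinusoidal markers at 106, 69.3 and 122 CPM. Fcgr2b was then at 7.75, 8.71 and 9.52 CPM, no longer apart. Clec4g was at 1.55, 7.31 and 10.4 CPM on 2, 42 and 80 UMIs, still 6.73-fold (1.80 to 56.5) higher in IDD+HID. Stab1 was at 50.4, 77.5 and 54.4 CPM, 1.54-fold (1.18 to 2.03) higher in IDD+HTF and 1.08-fold in IDD+HID. Lyve1 changed direction, to 20.9, 5.92 and 4.30 CPM, 0.28 and 0.21 times the control. In the control its 27 UMIs lay in 3 cells. Cd36, at 60.4, 88.6 and 55.7 CPM, was 1.47-fold higher in IDD+HTF and changed direction in IDD+HID, at 0.921 times. Mrc1 (878, 973 and 1105 CPM), Msr1 (459, 306 and 448 CPM) and Scarb1 (122, 166 and 162 CPM) stayed as they were, and Stab2, at 105, 108 and 94.7 CPM, was level. The counts past the limit were then 2, 2 and 1 in place of 5, 5 and 2, and not all of them were left from the earlier ones. Against IDD they were Stab1 higher and Lyve1 lower in IDD+HTF, and Clec4g higher and Lyve1 lower in IDD+HID. Between IDD+HID and IDD+HTF the 1 was Cd36, lower at 0.628 times (0.551 to 0.716), which was not past the limit before. Fcgr2b and Clec4g were within it there, at 1.09-fold and 1.43-fold. Clec4g fell under the minimum of 50 UMIs in IDD+HTF over IDD and was not counted there. Its ratio in that comparison was still 4.72-fold (1.23 to 40.3). The share over all genes was not computed for these cells, so the reduced counts have no background beside them.

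**Figure D4:**
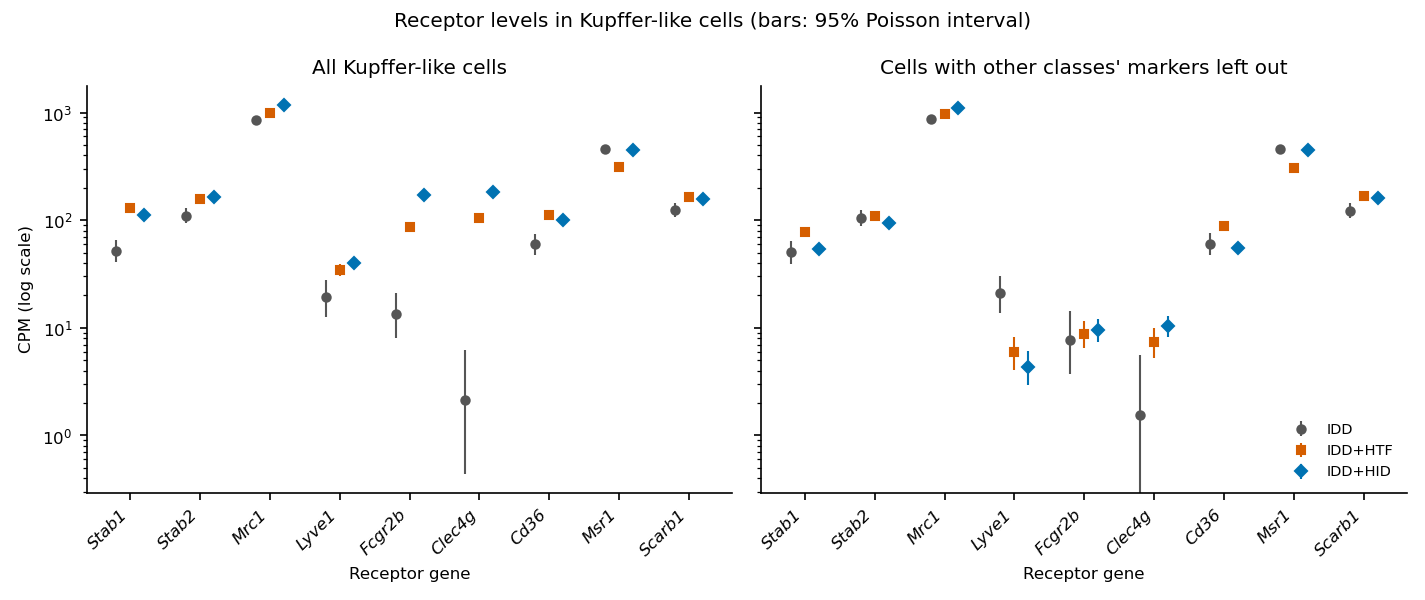
Receptor levels in Kupffer-like cells (CPM, log axis, with 95% Poisson intervals) for all cells of the class (left) and without cells carrying other classes' markers (right), by library. Clec4g and Fcgr2b of IDD+HTF and IDD+HID drop from between 86.8 and 182 CPM to between 7.31 and 10.4 CPM, while Mrc1, Msr1 and Scarb1 hardly move.

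Other genes of the same routes were followed from 6 lists of 117 genes in all. In sinusoidal-like cells of IDD+HTF against IDD, the 31 measured genes of clathrin and endosome machinery had 0 higher and 1 lower, Ehd1, an endosomal recycling protein, at 0.666 times. In IDD+HID they had 4 higher and 0 lower, among them Clta, a clathrin light chain, at 1.95-fold (1.78 to 2.13) and Lamp1, a lysosomal membrane protein, at 1.90-fold (1.72 to 2.09). Against IDD+HTF they had 2 higher, Lamp1 at 1.54-fold and Eea1, an early endosome tether, at 1.53-fold. Over all measured genes of the class 19.9%, 33.9% and 16.5% were past the limit in these comparisons, so the shares of this list, 1, 4 and 2 of 31, were lower.

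Among the lipoprotein and cargo receptors, Lrpap1, a chaperone of this receptor family, was 1.57-fold (1.21 to 2.07) higher in IDD+HTF. Lrp4 was 0.448 times the control in IDD+HID and 0.301 times IDD+HTF. Sort1, a sorting receptor, was 2.29-fold (1.26 to 4.66) higher in IDD+HID on 11 control UMIs.

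Of the other lectin receptors, 9 were measured in IDD+HTF against IDD with 1 higher and 0 lower, and 10 in IDD+HID with 2 higher and 1 lower, where 19.9% and 33.9% of all genes were past the limit. Cd302, a C-type lectin, was higher in both, 1.66-fold (1.32 to 2.12) and 2.48-fold (1.99 to 3.14), and Clec1b was 1.54-fold higher in IDD+HID. Of the other scavenger receptors, 6 were measured in the first comparison with 1 higher and 1 lower, and 8 in the second with 2 higher and 2 lower, beside the same shares. Colec12 was 0.479 times the control in IDD+HTF, and Cd93 was 1.76-fold (1.58 to 1.97) higher in IDD+HID. Of the Fc and complement receptors, 0 of 3 and 2 of 4 were past the limit, beside the same shares, and the latter include Fcer1g, the common Fc receptor gamma chain, at 1.60-fold.

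The list of 15 measured transcription factors of sinusoid cells had 3 higher in IDD+HTF (19.9% of all genes were past the limit) and, in IDD+HID, 1 higher and 1 lower (33.9%). Klf2, a flow-responsive endothelial factor, was 1.76-fold (1.68 to 1.86) higher in IDD+HTF. Klf4, of the same family, was 1.68-fold (1.53 to 1.85) and 2.45-fold (2.24 to 2.69) higher in IDD+HTF and IDD+HID. Sox18 was 0.646 times (0.596 to 0.70) the control in IDD+HID. In Kupffer-like cells 3 of 11 other scavenger receptors were past the limit in IDD+HTF (19.0% of all genes) and 4 of 12 in IDD+HID (25.1%). Marco, a class A scavenger receptor of macrophages, was at 318, 1252 and 137 CPM, 3.94-fold (3.58 to 4.34) higher in IDD+HTF and 0.432 times (0.387 to 0.482) the control in IDD+HID. It is also a leading gene of cluster 3, whose share of the class differs between libraries. Cd14, the lipopolysaccharide co-receptor, was 2.24-fold and 2.34-fold higher. Tfrc, the transferrin receptor, was at 39.8 CPM in IDD+HID against 83.6 CPM in IDD, 0.476 times (0.386 to 0.591). Dab2, a clathrin adaptor, was 2.42-fold (2.09 to 2.82) higher in IDD+HID.

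Across the 7 classes (clusters 8 and 12 pooled as one) with at least 30 cells in every library, 10519 genes were ranked by how alike their log2(CPM + 1) was to each receptor over the 21 class and library points. These points share libraries and depth, and the correlations (Pearson's r) are a description. Most alike were Ripply3 and Gata2 to Stab1 (0.98 both), Tfpi (0.98) and Lyve1 (0.97) to Stab2, Dab2 and Sash1 to Mrc1 (0.98 both), and Oit3 (0.99) and Tspan7 (0.98) to Clec4g. Rell1 (0.98) and Stab2 (0.97) were nearest to Lyve1, so 2 of the receptors were on each other's short list. Cldn5 and F8 (0.97 both) were nearest to Fcgr2b, Rasal2 (0.98) and Kank3 (0.97) to Cd36, Anxa3 and Il1a (0.98 both) to Msr1, and Il13ra1 (0.97) and Rhobtb1 (0.95) to Scarb1.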

How the data were processed

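The authors deposited one matrix of raw counts (UMIs per gene and barcode) for each of the 3 libraries. Per the submitters' processing notes the genome was GRCm38 and Seurat 4 was among the tools. The aligner is not given in the sources used here, nor is the counter. Symbols were matched for 55154 of 55421 gene identifiers. A barcode needed 1000 UMIs, 300 genes and a mitochondrial share of 20% or less (1334, 3208 and 3545 passed), and kept cells exclude Scrublet doublet calls (1.72%, 0.156% and 0.197%; below 0.5% the caller had not worked, so doublets remain possible). The libraries shared 1 barcode in each pair. Cells were clustered with scanpy 1.11.5 (2000 variable genes, 30 components, 15 neighbours, Leiden resolution 1), and 7.93%, 5.74% and 4.72% stayed unnamed. UMIs were summed per class and library and given as CPM with exact Poisson intervals; ratios have exact conditional binomial intervals. Intervals were computed at 95%, and units under 30 cells in a library were not compared. TMM and median-of-ratios factors came from edgeR 4.0.16. On counts simulated with counting error alone, 70.0% to 92.0% of 200 genes changed 2-fold were recovered. Apart from depth and the changed genes the simulated libraries did not differ, so differences between animals were not covered. The share of unchanged genes past the limit is not given here. Shares used cells thinned to 1000 UMIs. Named genes were all members, genes among the up to 3 of each other list, comparison and class with the largest ratio, and the 2 genes most alike each member. One result of the lipoprotein receptor list is not reported here. Members and lists were chosen with earlier results of these data known.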

Additional observations from a re-analysis of the deposited data

Results flagged for a closer look

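Several receptors had ratios between the same libraries that lay on opposite sides of 1 in different cells. None of these differences was tested, since each group is 1 library. In IDD+HID over IDD, Stab1 was 2.18-fold higher in Kupffer-like cells and at 0.89 times the control in sinusoidal-like cells. Stab1 in Kupffer-like cells without other classes' markers was 1.08-fold higher. In the same comparison Stab2 was at 1.55 times the control in cluster 12 and 0.943 times in sinusoidal-like cells, and Msr1 at 1.52 and 0.835 times. In IDD+HID over IDD+HTF, Lyve1 was 1.83-fold higher in cluster 12, on 357 and 67 UMIs, and 0.716 times as high in sinusoidal-like cells. The Lyve1 ratio of the pericentral over the periportal range was 2.42 in IDD and 0.75 in IDD+HID.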

How the results depend on the processing

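The counts of receptors past 1.5-fold, with the zone, class and share counts, were recomputed under each alternative. Of 102 such values, 81 stayed within 1.5 times the count given and 21 moved. A count takes no account of direction, so a receptor that changed sides within one does not show. One alternative, no minimum of UMIs, could not move a count of receptors past 1.5-fold or a ratio. All 9 receptors already passed the minimum in the sinusoidal-like class, cluster 12 and the Kupffer-like class. In sinusoidal-like cells the 1 of IDD+HTF over IDD became 2 at Leiden resolution 0.5, by the mean over cells and in cluster 1 alone. The 1 of IDD+HID over IDD became 2 under TMM scaling, median-of-ratios scaling, Leiden resolution 0.5, with doublet calls kept and without cells carrying other classes' markers under the added rule (Cd36 joining Lyve1). It also became 2 with free RNA subtracted, under the planned rule that also uses hepatocyte markers and in cluster 9 alone (1 higher, and Scarb1 lower). It became 4 by the mean over cells and in cluster 1 alone. The 0 of IDD+HID over IDD+HTF became 1 under the planned rule. In cluster 12 the 7 of IDD+HID over IDD became 4 under TMM and median-of-ratios scaling. In Kupffer-like cells the 5 of IDD+HTF over IDD became 2 under the added rule (Stab1 higher, Lyve1 lower). The 5 of IDD+HID over IDD became 3 with doublet calls kept and 2 under the added rule (Clec4g higher, Lyve1 lower). The 2 of IDD+HID over IDD+HTF became 1 under the added rule (Cd36 lower) and 4 in cluster 3 alone. The cause was not tested. Of 915 receptor values, 757 were the same, 155 moved and 3 reversed. A value counted as reversed only if it had been past 1.5-fold, so other changes of side are among the same or moved values. The 3 were in Kupffer-like cells under the added rule: Lyve1 at a log2 ratio of −1.82 (IDD+HTF over IDD) and −2.28 (IDD+HID over IDD), and Cd36 at −0.12 (IDD+HID over IDD). Values within the limit changed sides too, and not all are listed. In the same cells and rule Stab2 went below 0, to −0.15 (IDD+HID over IDD) and −0.19 (IDD+HID over IDD+HTF). Lyve1 went to −0.46 (IDD+HID over IDD+HTF). In sinusoidal-like cells Msr1 was at 0.08 in place of −0.10 (log2, IDD+HTF over IDD) at Leiden resolution 0.5. The planned rule left too few cells in the Kupffer-like class, cluster 12 and the zone ranges, and cluster 12 could not be followed with a 10% mitochondrial limit, at Leiden resolution 0.5 or with doublet calls kept. Free RNA was estimated at 5.84% to 8.75% of sinusoidal-like, 5.90% to 7.76% of Kupffer-like and 6.46% to 14.8% of cluster 12 UMIs. No paired analysis was possible because each group holds 1 sample. Depth limits the control most: Lyve1 in cluster 12 rested on 6 UMIs there.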
